A study of Homo sapiens with 7 samples.

Results

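The genes for the receptors of GABA, glycine, glutamate, acetylcholine, serotonin and dopamine were described in HepG2, an established human liver cancer cell line. They were taken from the expression table as the autosomal loci with a gene symbol that starts with GABR, GLRA, GRIA, GRIK, GRIN, GRM, CHRN, CHRM, HTR or DRD and ends in a short subunit code. The pattern matched 92 of the 21047 named autosomal loci, and the table holds 30032 loci in all. Of the 92 loci, 86 were receptor loci with 83 different symbols, since GRIK4, GRIN1 and GRIN2D each had a pair of rows with the same coordinates. The other 6 only share the letters of the pattern: HTRA1, HTRA2, HTRA3 and HTRA4 are serine proteases, and GRINA and GRINL1A are not receptor subunits. They were kept apart, and every count below is over the 86 receptor loci unless another number is given.

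All 7 samples came from cultured HepG2 cells with no treatment named, with 1 sample for each assay. ChIP-Seq gave 1 list of marked nucleosomes each for H3K4me3, H3K9ac, H3K27ac, H3K27me3 and H3K9me3, native MNase-Seq gave 14217405 nucleosome positions, and RNA-Seq gave FPKM (fragments scaled to transcript length and to all mapped fragments) in 2 runs of 1 sample. The lists held between 26271 (H3K27me3) and 95886 (H3K27ac) marked nucleosomes and no signal height, and the files hold no read counts. No assay had a replicate, so no difference between groups of genes was tested, and percentages are set beside those of all named autosomal loci. The line carried the RNA of liver cells: all 13 hepatocyte markers were between 56.6 and 10011 FPKM in their highest row, with ALB, serum albumin, the highest. Second rows of APOA1 and HNF4A were at 0.923 and 4.65 FPKM. Of 8 neuron markers, 6 were below 0.1 FPKM, and SNAP25 and GAP43 passed 1 FPKM only in a row with coordinates that other rows shared.

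Ionotropic receptors are ion channels built from several subunits. GABA-A and glycine receptors pass chloride and quiet a neuron, and AMPA, kainate, NMDA and nicotinic receptors pass cations and excite it. Metabotropic glutamate, muscarinic, dopamine and most serotonin receptors signal through G proteins instead. H3K4me3, H3K9ac and H3K27ac mark the starts of transcribed genes, and a nucleosome that carries all of them is called T here, as in the study. H3K27me3 is the mark of Polycomb repression, often laid down at the CpG-rich starts of genes of other lineages, and H3K9me3 is the mark of heterochromatin.

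The promoters of 5 of these genes are shown as examples of starts with different marks or sequence. Each run is the 250 bases before the RefSeq start in GRCh38.p14, read 5′ to 3′ along the gene, with each CpG dinucleotide in capitals. That build is not the hg19 build of the files, and a RefSeq start need not be the start of the locus in the expression table. CHRNB1 (chr17:7444811-7445060, plus strand), the muscle nicotinic beta subunit, was the receptor gene with a T nucleosome just inside its start. GRIK2 (chr6:101393458-101393707, plus strand), a kainate subunit, had H3K27me3 on a pair of nucleosomes upstream of its start. HTR7 (chr10:90858040-90858289, minus strand), a serotonin receptor, had H3K4me3 and H3K27me3 on separate nucleosomes. GABRA6 (chr5:161685471-161685720, plus strand), a GABA-A subunit of cerebellar granule cells, had H3K27me3 at a start with few CpGs. The CpG counts in these 250 bases were 10 for CHRNB1, 25 for GRIK2, 41 for HTR7 and 3 for GABRA6.
CHRNB1: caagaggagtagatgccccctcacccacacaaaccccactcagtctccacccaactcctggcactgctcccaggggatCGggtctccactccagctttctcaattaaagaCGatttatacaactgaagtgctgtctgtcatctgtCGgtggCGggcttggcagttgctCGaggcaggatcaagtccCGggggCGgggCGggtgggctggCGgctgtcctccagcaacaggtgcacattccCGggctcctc
GRIK2: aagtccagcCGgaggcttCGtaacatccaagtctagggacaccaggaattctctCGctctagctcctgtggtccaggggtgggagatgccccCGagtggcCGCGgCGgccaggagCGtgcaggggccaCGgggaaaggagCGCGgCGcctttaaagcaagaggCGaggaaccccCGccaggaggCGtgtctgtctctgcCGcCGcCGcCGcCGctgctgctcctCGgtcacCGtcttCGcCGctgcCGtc
HTR7: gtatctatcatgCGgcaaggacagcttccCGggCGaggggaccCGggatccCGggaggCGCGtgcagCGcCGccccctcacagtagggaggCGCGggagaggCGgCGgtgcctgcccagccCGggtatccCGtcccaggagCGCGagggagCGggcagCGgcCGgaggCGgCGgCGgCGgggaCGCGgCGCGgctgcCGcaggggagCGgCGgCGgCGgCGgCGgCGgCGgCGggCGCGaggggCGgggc
GABRA6: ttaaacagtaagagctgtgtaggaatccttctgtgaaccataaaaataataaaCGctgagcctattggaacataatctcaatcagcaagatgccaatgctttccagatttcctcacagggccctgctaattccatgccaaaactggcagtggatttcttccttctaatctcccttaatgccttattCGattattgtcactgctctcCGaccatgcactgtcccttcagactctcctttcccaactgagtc

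HTR5A (chr7:155070074-155070323, plus strand), another serotonin receptor, is shown for a motif. The letters CAGCACC followed, after any 2 bases, by GGACAG are part of the RE1 element that the repressor REST binds at neuronal genes, and they were searched on both strands. Here the capitals mark the 3 matches.
HTR5A: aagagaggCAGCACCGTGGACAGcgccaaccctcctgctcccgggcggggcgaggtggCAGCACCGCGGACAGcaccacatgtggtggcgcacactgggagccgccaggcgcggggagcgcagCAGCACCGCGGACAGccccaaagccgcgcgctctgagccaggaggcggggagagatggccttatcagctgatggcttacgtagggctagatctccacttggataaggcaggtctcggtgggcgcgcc

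The receptor genes were nearly all at or near 0 in HepG2 RNA. Their median was 0.0153 FPKM, against 1.44 FPKM over all named autosomal loci. Only 4 of the 86 loci (4.65%) reached 1 FPKM, a level that 52.2% of all named loci reached, and 20 (23.3%) reached 0.1 FPKM, against 64.5%. In both runs 33 loci (38.4%) were listed at 0, against 21.2% of all named loci. Fewer cells with the RNA and less RNA per cell cannot be told apart in such bulk samples. Of the potassium channel genes, taken by their KCN symbols as another family of membrane proteins of excitable cells, 6 of 82 loci (7.32%) were at 1 FPKM or more. Olfactory receptor genes were lower still, with 1 of 378 (0.265%).

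**Figure D1:**
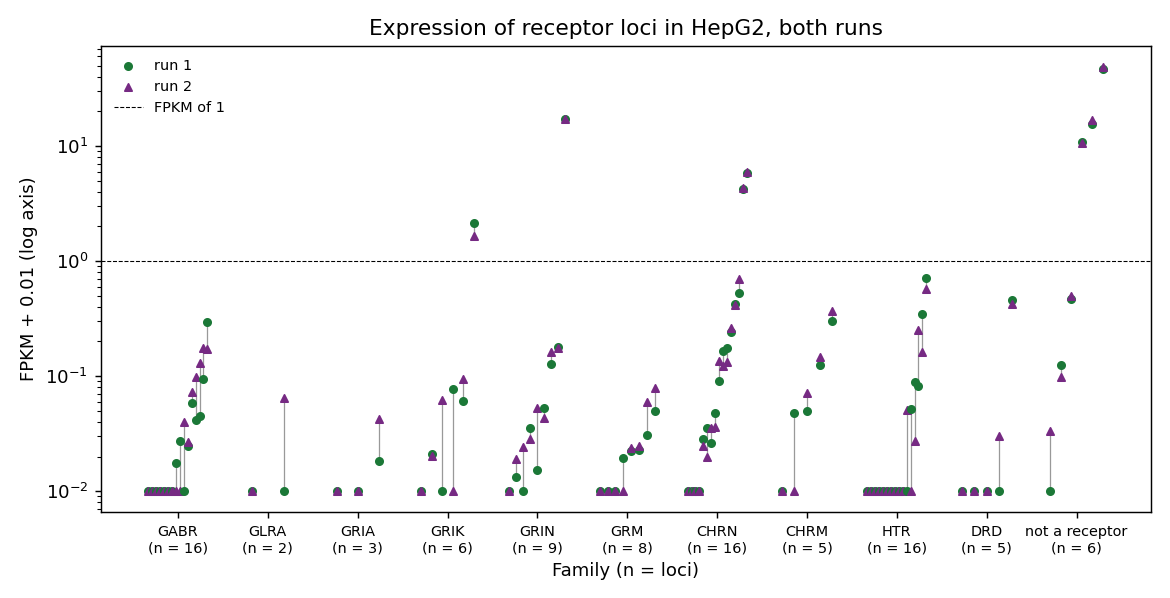
FPKM plus 0.01 (log axis) of each matching locus in run 1 (circles) and run 2 (triangles), joined by a line and ordered within each family. The dashed line is 1 FPKM, and 4 receptor loci and 3 loci that are not receptors lie above it.

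CHRNB1 (hg19 chr17:7348390-7361142), the beta subunit of the acetylcholine receptor of muscle, was the highest of the rows that named 1 receptor gene. It was at 5.86 FPKM in run 1 and 5.91 FPKM in run 2. CHRNA5 (hg19 chr15:78857840-78913637), an accessory subunit of neuronal nicotinic receptors, was at 4.24 and 4.33 FPKM. These were the only rows at 1 FPKM or more that named a single receptor gene on that gene's own strand. CHRNA5 shared its coordinates with CHRNA3, an alpha subunit on the other strand, which was at 0.155 and 0.113 FPKM. A strand-specific count is not stated, so reads in the overlap of that pair cannot be told apart.

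The remaining 2 rows above 1 FPKM could not be tied to a receptor. One row joined GRIN2D, an NMDA subunit, with GRWD1, a ribosome assembly factor, and KCNJ14, a potassium channel, and was at 17.2 and 17.0 FPKM. A second GRIN2D row, numbered among the genes of the minus strand, was at 0.0255 and 0.0183 FPKM. The other was a GRIK4 row that is numbered with the minus strand, although GRIK4, a kainate subunit, lies on the plus strand. It was at 2.14 and 1.63 FPKM, and the GRIK4 row on the plus strand was at 0.0672 FPKM in run 1 and listed at 0 in run 2. The nearest locus below 1 FPKM was HTR3B, a subunit of the serotonin-gated channel, at 0.700 and 0.557 FPKM.

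Between 0.1 and 1 FPKM lay 16 receptor loci, and 6 of them were nicotinic subunits. CHRNE, the adult muscle subunit, was at 0.512 and 0.684 FPKM, and CHRNA7, which forms channels by itself, was at 0.411 and 0.407 FPKM. DRD4, a dopamine receptor, was at 0.447 and 0.411 FPKM, and CHRM3, the muscarinic receptor of glands and smooth muscle, was at 0.289 and 0.355 FPKM. The runs differed by more than 2-fold at HTR1D, a serotonin receptor with 0.336 and 0.153 FPKM, and at HTR2B, with 0.0725 and 0.243 FPKM. The values of HTR1D and HTR2B therefore hold less well between runs than those of CHRNB1 and CHRNA5. By family, 8 of 16 nicotinic loci reached 0.1 FPKM, as did 3 of 9 NMDA, 3 of 16 serotonin, 2 of 5 muscarinic, 2 of 16 GABA-A, 1 of 5 dopamine and 1 of 6 kainate loci. None of the 3 AMPA, 8 metabotropic glutamate and 2 glycine loci did.

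H3K27me3 was the mark most often found at the starts of the receptor genes. It lay within 2 kb of the start at 27 of the 86 loci (31.4%), against 7.54% of all named loci. At most of these loci it was on a single nucleosome. H3K4me3 was there at 14 loci (16.3%, against 53.2%), H3K9ac at 11 (12.8%, against 50.4%) and H3K27ac at 3 (3.49%, against 45.5%). H3K9me3 was there at 7 loci (8.14%, against 2.12%), and a T nucleosome at 3 (3.49%, against 43.0%). The loci with H3K27ac or T were CHRNB1 and both GRIN2D rows, which were given the same start. Both GRIK4 rows, counted under H3K27me3, were also given the same start. The start is the end of the locus at which its strand begins, and a distance is measured to the middle of the nucleosome. Some loci join overlapping genes: 18 of the 86 (20.9%, against 36.9% of all named loci) shared their coordinates with another row, and there the start may belong to a neighbour. Others, such as CHRM4 and HTR1A, are shorter than the RefSeq gene, so marks at the RefSeq start can be missed.

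**Figure D2:**
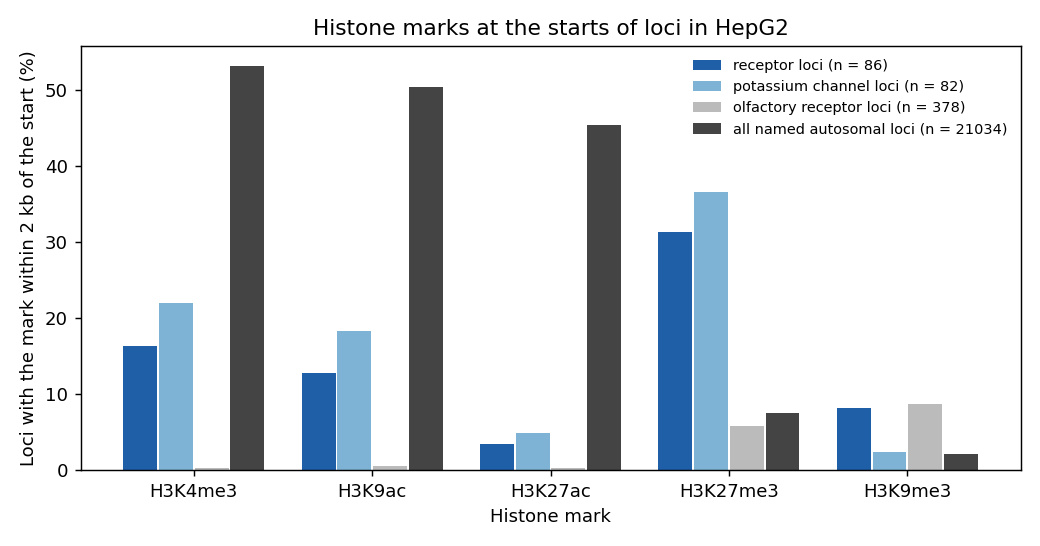
Percentage of loci with at least 1 nucleosome of each mark within 2 kb of the start, for receptor, potassium channel, olfactory receptor and all named autosomal loci. H3K27me3 was at 31.4% of receptor and 36.6% of potassium channel loci against 7.54% of all named loci, and the activation marks were at fewer receptor loci than named loci.

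Potassium channel loci had a like set of marks, with H3K27me3 at 30 of 82 starts (36.6%) and H3K4me3 at 18 (22.0%). Olfactory receptor loci did not, with H3K27me3 at 22 of 378 starts (5.82%) and H3K4me3 at 1 (0.265%). H3K9me3 at the start was at 8.14% of receptor, 2.44% of potassium channel and 8.73% of olfactory receptor loci.

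The share of nucleosomes with H3K27me3 was highest near the starts, although most of these nucleosomes lay elsewhere in the long loci. Of 1656 nucleosome positions within 2 kb of the 83 starts, 38 carried it, or 2.29% (95% exact binomial interval 1.63 to 3.14, counting error only). In the rest of the loci the share was 0.214% (0.180 to 0.254), and in the rest of the 10 kb on either side it was 0.117% (0.0534 to 0.222). Over all named loci the same 3 shares were 0.637%, 0.123% and 0.179%. At potassium channel loci they were 3.34%, 0.195% and 0.116%, so the rise at the start was not particular to receptor genes. In 500 bp steps, the highest share of H3K27me3 was 6.32% (12 of 190 positions), from 500 bp upstream to the start. H3K4me3 was highest in the first 500 bp inside the gene, with 5.88% (11 of 187 positions), where all named loci had 33.1%.

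**Figure D3:**
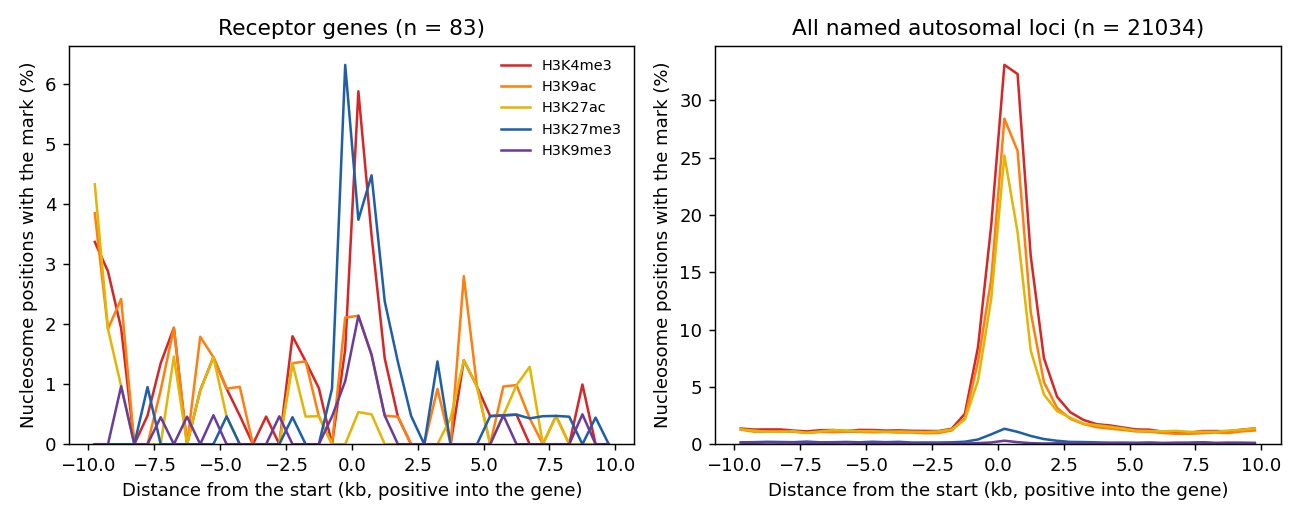
Percentage of nucleosome positions that carried each mark in 500 bp steps around the start, for 83 receptor genes (left) and all named autosomal loci (right), with different vertical scales. At the receptor genes H3K27me3 peaked at 6.32% just upstream of the start and H3K4me3 at 5.88% just inside it, whereas at all named loci H3K4me3 reached 33.1% and H3K27me3 reached 1.35%.

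Sorted by what lay within 2 kb of the start, 43 loci (50.0%) carried at least 1 mark, against 61.8% of all named loci, and 43 carried none. Of those with a mark, 24 carried H3K27me3 without an activation mark, 13 carried activation marks without H3K27me3, 3 carried both kinds and 3 (GRM7, HTR1A and GABRG3) carried H3K9me3 only. The 24 loci with H3K27me3 had a median of 0.0083 FPKM, and the 1023 named loci of the same class had a median of 0.00865 FPKM. These 24 ranged from 0 to 1.88 FPKM, the highest being the GRIK4 row numbered with the minus strand, and 3 reached 0.1 FPKM. The named loci of this class ranged up to 313 FPKM, and 64 of them reached 1 FPKM. The 13 loci with activation marks had a median of 0.135 FPKM and ranged from 0 to 17.1 FPKM. The 11163 named loci of that class had a median of 8.42 FPKM. The 43 unmarked loci ranged from 0 to 0.628 FPKM.

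**Figure D4:**
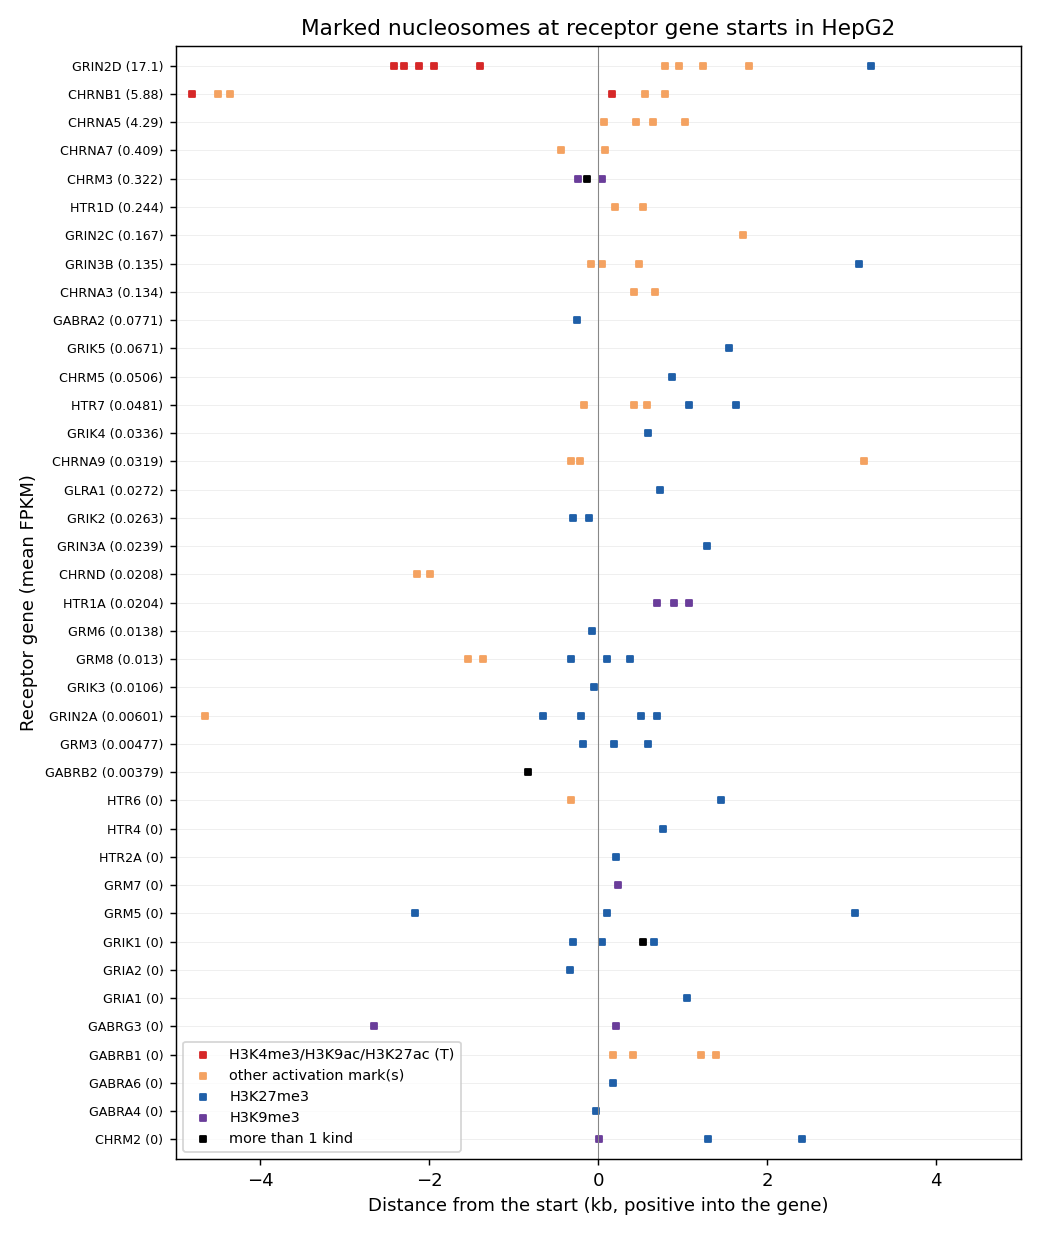
Marked nucleosomes within 5 kb of the start at 39 of the 40 receptor genes that had at least 1 within 2 kb, ordered by mean FPKM (in parentheses), with distance in kb on the horizontal axis. CHRNB1 and GRIN2D have T nucleosomes in view, the kainate genes GRIK1 to GRIK5 carry H3K27me3, and black squares are nucleosomes with H3K27me3 and H3K9me3.

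The kainate subunits had H3K27me3 at every start, in all 6 loci of 5 genes, with both GRIK4 rows given the same start. GRIK1 (hg19 chr21:30806419-31312282), which was listed at 0 in both runs, carried it at −295, 40, 524 and 660 bp from the start, and the nucleosome at 524 bp carried H3K9me3 too. GRIK2 (hg19 chr6:101841549-102517958) carried it upstream of the start, the nearest nucleosome at −107 bp, and was listed at 0 in run 1 and at 0.0525 FPKM in run 2. GRIK3, GRIK4 and GRIK5 each had 1 such nucleosome. GRIK1 shared its coordinates with antisense transcripts of the same place, in the rows of GRIK1-AS1 and NCRNA00258. Where those transcripts begin and end is therefore not shown.

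Other glutamate receptors followed in part. The AMPA subunits GRIA1 and GRIA2 had H3K27me3 at the start and GRIA4 did not (2 of 3). Of the metabotropic genes, 4 of 8 did: GRM3, GRM5, GRM6 and GRM8. GRM3 carried it at −178, 192 and 587 bp, and was at 0.00954 FPKM in run 1 and listed at 0 in run 2. Among the NMDA subunits, 2 of 9 loci had it. GRIN2A (hg19 chr16:9847265-10276611), a subunit of adult brain receptors, carried it at −659, −206, 504 and 697 bp, and was at 0.00317 and 0.00884 FPKM. GRIN3A had 1 such nucleosome. GRIN2B, the subunit of the young brain, had 13 H3K27me3 nucleosomes in and around the gene but none nearer to the start than 6475 bp.

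Activation marks at NMDA loci mostly lay in loci shared with other genes. GRIN3B, at 0.118 and 0.151 FPKM, carried H3K4me3 at −90 bp and H3K4me3 with H3K9ac at 40 and 480 bp, and it shared its coordinates with C19orf6. GRIN1, the subunit that every NMDA receptor needs, was at 0.0425 and 0.0336 FPKM in its plus row and carried no mark within 2 kb of that start. Its minus row, listed at 0, begins at the other end of the same locus and carried H3K4me3 at 89, 249 and 861 bp. Rows of LRRC26 and MIR3621 share these coordinates. GRIN2C, at 0.169 and 0.164 FPKM in coordinates of its own, carried H3K4me3 at 1710 bp.

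Of the GABA-A subunits, 5 of 16 had H3K27me3 at the start, among them GABRA2, GABRA4, GABRA6 and GABRB2. These genes had 1 such nucleosome each, and that of GABRB2, at −832 bp, carried H3K9me3 as well. GABRB1 (hg19 chr4:47033295-47428447) carried H3K4me3 alone on 4 nucleosomes, at 172, 409, 1212 and 1392 bp, with no acetylation mark and no T, and was listed at 0 in both runs. The glycine subunit GLRA1 had H3K27me3 at its start and GLRA3 had no mark there.

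None of the 16 nicotinic loci had H3K27me3 at the start, and 5 had H3K4me3 there. CHRNB1 carried T at 167 bp, H3K4me3 and H3K27ac at 557 bp and H3K4me3 at 792 bp. These positions were also within 2 kb of an end of the neighbouring locus of FGF11 and TMEM102. CHRNA5 carried H3K4me3 at 63, 447 and 1022 bp and H3K4me3 with H3K9ac at 647 bp, and neither T nor H3K27ac within 10 kb. CHRNA7 (hg19 chr15:32322691-32462384) carried H3K4me3 with H3K9ac at −444 bp and H3K4me3 at 76 bp, and CHRNA9, at 0.0376 and 0.0262 FPKM, carried H3K9ac alone at −322 and −217 bp. H3K4me3 at the start thus occurred at CHRNB1 and CHRNA5 and also at genes below 1 FPKM.

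Of the muscarinic, serotonin and dopamine receptors, where the serotonin loci include the channel subunits HTR3A to HTR3E, H3K27me3 was at the start of 3 of 5 muscarinic loci, 4 of 16 serotonin loci and 0 of 5 dopamine loci. The muscarinic loci were CHRM2, CHRM3 and CHRM5, and the serotonin loci were HTR2A, HTR4, HTR6 and HTR7. CHRM3 (hg19 chr1:239549912-240075044) had H3K9me3 at −240, −128 and 45 bp, with H3K27me3 on the middle nucleosome. HTR1D carried H3K4me3 with H3K9ac at 197 and 535 bp. None of the dopamine loci had any mark within 2 kb of the start, and DRD1 and DRD3 were listed at 0. HTR1A, the serotonin receptor that also sits on serotonin neurons themselves, carried H3K9me3 at 699, 899 and 1069 bp. Its locus in the table is shorter than the RefSeq gene, so its start is less certain. CHRM5 shares its coordinates with AVEN and RYR3, so its start in the table is that of the joint locus and need not be that of CHRM5.

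H3K4me3 and H3K27me3 together within 2 kb of the start were found at HTR7 and GRM8, 2 of the 86 loci (2.33%, against 2.49% of all named loci). They lay on different nucleosomes. HTR7 (hg19 chr10:92499893-92617957) had H3K4me3 at −170, 420 and 580 bp and H3K27me3 at 1070 and 1630 bp, and was at 0.0791 and 0.0171 FPKM. GRM8 had H3K27me3 at −324, 106 and 381 bp and H3K4me3 at −1544 and −1359 bp. It shared its coordinates with the row of the microRNA gene MIR592. GRM8 was at 0.0122 and 0.0138 FPKM. HTR6 had H3K9ac at −318 bp and H3K27me3 at 1452 bp, and was listed at 0.

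Across the wider window of 10 kb around the whole locus, both repressive marks were found at a larger share of receptor loci than of all named loci, and the 3 activation marks at a smaller share. H3K27me3 was found at 51 of the 86 loci (59.3%, against 31.4% of all named loci) and H3K9me3 at 40 (46.5%, against 32.6%). H3K4me3 was found at 32 (37.2%, against 75.0%), H3K9ac at 42 (48.8%, against 75.0%) and H3K27ac at 24 (27.9%, against 69.1%). T was found at 15 (17.4%, against 64.4%). At least 1 marked nucleosome of any kind was found at 77 (89.5%, against 91.1%). The receptor loci were longer than most, with a median of 61811 bp against 37017 bp, so their windows held more nucleosomes.

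Counted per nucleosome, 183 of the 72180 positions in these windows carried H3K27me3 (0.254%, interval 0.218 to 0.293). In the same windows of all named loci 0.161% did, and of all autosomal positions 0.186%. For H3K9me3 the share was 0.292% (0.254 to 0.334), against 0.167% and 0.248% in the same order. For H3K4me3 it was 0.206% (0.175 to 0.242), against 1.05% and 0.615%. For T it was 0.0831% (0.0634 to 0.107), against 0.545% and 0.307%. Potassium channel windows had 0.266% for H3K27me3 and 0.186% for H3K9me3, and olfactory receptor windows had 0.378% and 0.426%. Of the 635 marked nucleosomes near receptor loci, 201 carried H3K9me3 alone, 173 carried H3K27me3 alone and 60 carried T. H3K27me3 and H3K9me3 were together on 8 nucleosomes with no other mark and on 1, inside HTR3E, with H3K9ac as well. Another 1, at −4895 bp from the start of the CHRM4 locus, carried H3K4me3 and H3K27me3. That locus is 2340 bp long against 7988 bp in RefSeq, so its start is uncertain, and it was counted as an unmarked start.

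The number of repressive nucleosomes went with the length of the gene. Over the 83 genes, Spearman's rho between locus length and the number of positions was 0.731 for H3K27me3 and 0.741 for H3K9me3, and −0.033 for H3K4me3. This is a correlation across genes, which are not independent replicates, and longer loci hold more positions. All 21 genes of at least 200 kb had H3K27me3 and 20 had H3K9me3. Of the 28 genes under 20 kb, 8 had H3K27me3 and 4 had H3K9me3. The same counts were not made over all named loci of these lengths, so whether they are particular to receptor genes was not tested.

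**Figure D5:**
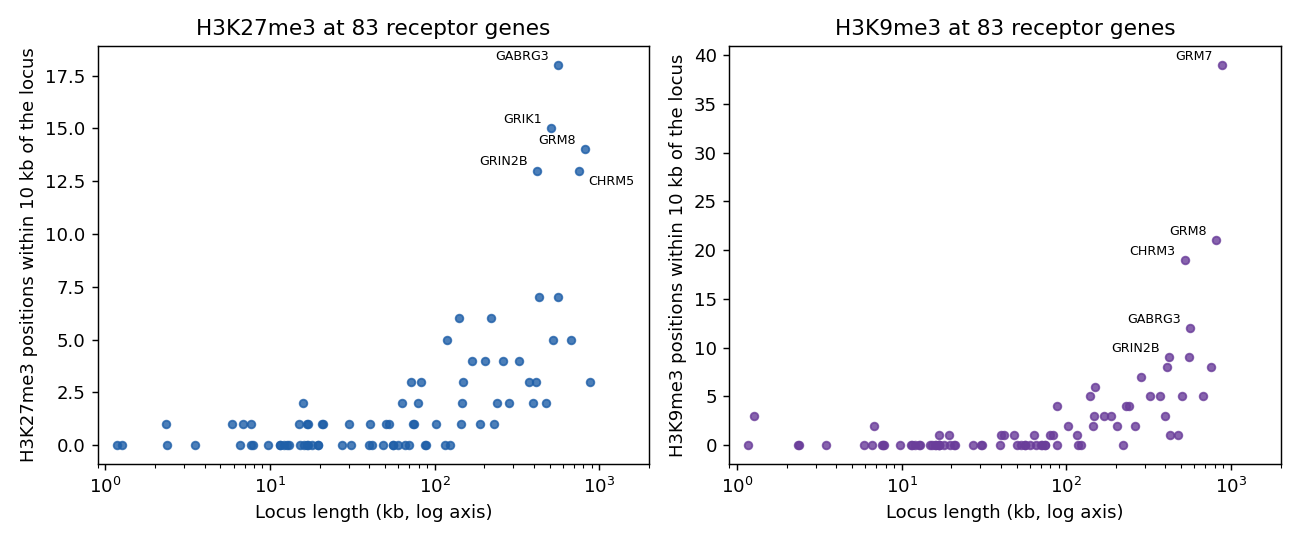
Number of H3K27me3 (left) and H3K9me3 (right) nucleosomes within 10 kb of each of 83 receptor genes against locus length (kb, log axis), with the 5 highest genes named. GABRG3 had 18 H3K27me3 and GRM7 had 39 H3K9me3 nucleosomes, and the short genes lie at or near 0.

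GRM7 (hg19 chr3:6902802-7783218), a presynaptic metabotropic glutamate receptor, had 39 H3K9me3 nucleosomes of 4610 positions (0.846%, interval 0.602 to 1.15) and 3 with H3K27me3. They were spread through the gene, with a median gap of 17067 bp, and only 2 pairs sat on neighbouring positions. GRM8 had 21 of 4187 (0.502%) and CHRM3 had 19 of 2717 (0.699%). GABRG3 had 12, GRM5 and GRIN2B had 9 each, and CHRM5 had 8. GRM7, GABRG3 and GRM5 were listed at 0 in both runs.

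GABRG3 (hg19 chr15:27216429-27778373) had the most H3K27me3, on 18 of 2921 positions (0.616%, interval 0.366 to 0.972), with none within 2 kb of its start. GRIK1 had 15, GRM8 had 14, GRIN2B and CHRM5 had 13 each, GRM5 and GRIN2A had 7 each, and GRM3 and CHRNA7 had 6 each. GRIN2A was the most compact of them, with a median gap of 581 bp and 4 of 7 nucleosomes at the start. The nucleosomes of GABRG3 had a median gap of 26040 bp.

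Several receptor genes lie side by side, within 500 kb of each other. In a GABA-A cluster on chromosome 15, GABRA5 had 3 H3K27me3 and 1 H3K9me3 nucleosomes and GABRG3 had 18 and 12, and no activation mark lay within 10 kb of either. In a cluster on chromosome 5, GABRB2 had 4 H3K27me3 nucleosomes and GABRA6 had 1, again with no activation mark. Chromosome 4 held separate pairs. In the first, GABRG1 had 1 H3K4me3 and no repressive mark, and GABRA2 had 2 H3K27me3 and 3 H3K9me3. In the next, GABRA4 had 1 H3K27me3, and GABRB1 had 2 H3K27me3 and 3 H3K9me3 beside the 4 H3K4me3 given above. GABRR1 had 1 H3K27me3 and GABRR2 had 3 H3K9ac nucleosomes. The GABA-A genes named here thus had few activation marks.

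Among the nicotinic clusters, CHRNA5, CHRNA3 and CHRNB4 on chromosome 15 had H3K4me3 and no repressive mark, with CHRNB4 listed at 0 and its 2 H3K4me3 nucleosomes those that also lie at the CHRNA3 start. CHRND and CHRNG had 2 and 8 H3K4me3 nucleosomes and no repressive mark within 10 kb. All of these were within 2 kb of an end of another locus, LOC646960 for CHRND and EIF4E2 or TIGD1 for CHRNG, and CHRNG, the higher, was at 0.0816 and 0.126 FPKM. CHRNB3 and CHRNA6 were listed at 0, and CHRNB3 had 6 H3K27ac nucleosomes, 5 of them inside the gene between 21985 and 24135 bp from the start. Of HTR3D, HTR3C and HTR3E, all listed at 0, HTR3C and HTR3E had 1 H3K27me3 nucleosome each. DRD2 and HTR3A had no marked nucleosome within 10 kb, and HTR3B, which lies between them, had 1 H3K9ac and 1 H3K9me3.

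No mark lay within 10 kb of 9 receptor loci. The longest of these were GRM4 with 800 nucleosome positions, DRD2 with 459, CHRNA4 with 207, HTR3A with 189 and GRM2 with 171. DRD2, the dopamine receptor that antipsychotic drugs block, and HTR3A were listed at 0. CHRNA4, which makes up the main nicotinic receptor of the brain, was at 0.0187 and 0.0148 FPKM.

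Most T nucleosomes near receptor genes also lay near an end of another named row. Of the 60, 42 (70.0%) were within 2 kb of an end of another named locus, and 17 were inside a receptor locus. For H3K27me3 this share was 5.46% (10 of 183) and for H3K9me3 it was 1.42% (3 of 211). Rows that share the coordinates of a receptor locus, such as MINK1 at CHRNE and MIR592 at GRM8, counted as other loci here. Their end is that of the receptor locus itself, so the shares do not measure nearness to a separate gene alone. These shares were not counted over all marked nucleosomes, so whether they are particular to receptor genes was not tested. Over all named loci, T was on 7.79% of positions within 2 kb of the start and on 0.352% in the rest of the locus. T was found near CHRNB1 (6), CHRNB2 (4), CHRNB3 (1), CHRNE (8), CHRNG (4), CHRM4 (7), CHRM5 (2), HTR2B (4), GRIK1 (2), GRIK5 (4), GRIN1 (4), GRIN2D (9) and GRIN3B (5). The T nucleosomes upstream of GRIN2D, from −2420 to −1402 bp, were within 2 kb of an end of KDELR1, a receptor that returns proteins to the endoplasmic reticulum. Those past its far end were near CYTH2. Those of GRIK1 were inside the gene, 463478 and 463628 bp from the start.

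H3K27ac without T lay inside a few receptor genes away from their starts. GABRR3, a rho subunit of the kind known from retina, had 12 such nucleosomes between 22329 and 40107 bp from its start, and was at 0.285 and 0.163 FPKM with no mark within 2 kb of the start. GRIK4 had 9, between 163263 and 307125 bp. Past the far end of GLRA1 lay 5 more.

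At the sequence level, 65 receptor genes had a promoter of 300 bases in the RefSeq table. The 24 with H3K27me3 within 2 kb of the start had a median observed over expected CpG of 0.658, the 41 without it 0.505, and all 35116 promoters 0.579. The median count of CpGs in the 300 bases was 13.5 with it, 14.0 without it and 14.0 over all promoters. By class of start, the 21 genes with H3K27me3 and no activation mark had a median of 0.555, the 9 with activation marks alone 0.563 and the 29 unmarked genes 0.342, so the genes with H3K27me3 alone were not above all promoters. The range among genes with H3K27me3 was wide, from GABRA6 with 0.214 to HTR7 with 1.06. The RE1 letters searched above were found in 1 of the 65 (1.54%), HTR5A, and in 18 of all promoters (0.0513%). The shorter letters CAGCACC, which the longer motif contains, were found in 8 (12.3%), against 7.75% of all. HTR5A had 1 H3K27me3 nucleosome within 10 kb, none within 2 kb of its start, and was listed at 0.

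Other genes of transmitter handling were given as a list. The 5 further receptor subunits listed, GABBR1, GABBR2, GLRB and GRID1 among them, were all below 0.1 FPKM, and all had H3K27me3 within 10 kb, as had 31.4% of all named loci. Of 13 adrenergic and histamine receptors, 1 reached 1 FPKM, as did 52.2% of all named loci: ADRA2C, an alpha adrenergic receptor, at 19.7 and 19.6 FPKM, with 2 T nucleosomes at its start. Of 7 genes that load transmitter into vesicles, 1 did: SLC18A2, at 1.28 and 0.978 FPKM.

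Of 12 genes of transmitter synthesis, 5 reached 1 FPKM, against 52.2% of all named loci. GLUL, glutamine synthetase, was at 129 and 123 FPKM, GLS2, a glutaminase, at 7.95 and 8.47, TPH1, a serotonin synthesis enzyme, at 27.1 and 20.9, and DDC, which makes dopamine and serotonin, at 24.1 and 23.6. The neuronal enzymes GAD2, CHAT and TPH2 were listed at 0. Of 5 breakdown enzymes 3 reached it, among them ABAT, the GABA transaminase, at 53.9 and 53.2 FPKM and GOT1 at 51.9 and 51.2. Of 15 uptake carriers 5 did, led by SLC6A11, a GABA carrier, at a mean of 26.6 FPKM and SLC1A2, a glutamate carrier, at 12.5 and 12.2. Of 12 anchoring and accessory proteins 6 did, among them GPHN, gephyrin, at 10.3 and 9.90 FPKM. REST, the repressor of neuronal genes, was at 8.62 and 9.16 FPKM and its partner RCOR1 at 10.4 and 10.6.

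Of the 6 loci that match the pattern without being receptors, 3 were above 1 FPKM. GRINA was at 46.6 and 48.5 FPKM with T at its start, the row of GRINL1A and GCOM1 at 15.5 and 16.8, and HTRA2, a mitochondrial protease, at 10.7 and 10.7. HTRA1 was at 0.456 and 0.488 FPKM, HTRA3 at 0.115 and 0.0877, and HTRA4 was listed at 0 in run 1 and at 0.0233 in run 2. Of all 92 matches 7 reached 1 FPKM, and 3 of the 7 were these.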

How the data were processed

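The files were used as the authors deposited them. Per the study's methods, ChIP-Seq and native MNase-Seq reads were aligned with BWA to hg19, nucleosome positions were called with DANPOS, and NUCLIZE called a mark at fixed positions against input DNA. These lists hold coordinates only. The expression table holds the authors' FPKM values per locus in the layout of Cuffdiff, in 2 columns of 1 sample, described as runs here, since what separates them is not given in the sources used here; the processing notes name TopHat2 2.1.0, Bowtie and HOMER 4.7. The libraries came from rRNA-depleted RNA. Columns of the authors' own comparison of the runs (fold changes and p-values) were not used.

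A marked position was counted where its middle lay within 10 kb of the locus or 2 kb of its start. Each peak was matched to its position, beyond which it reached 3 bp on either side. Coordinates are 1-based. The strand came from RefSeq (GRCh38.p14) or else from the order in which the table numbers its loci; both gave the same strand for 68 of 70 matches. Percentages at the start are over the 21034 named loci with a strand. Expression was the mean of both runs; exact binomial intervals have a level of 95%. Counting was tested on simulated positions, where 220 of 220 loci were recovered. Python 3.11.15, numpy 2.4.6, pandas 2.3.3 and scipy 1.17.1 were used.

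The members, lists and comparisons were chosen with earlier results of these data known. Genes were named if they reached 1 FPKM, had T within 10 kb, had the most H3K27me3 or H3K9me3 (8 each), had H3K4me3 and H3K27me3 at the start, were the 5 longest without a mark, lay in a cluster, differed over 2-fold between runs at 0.1 FPKM or more, or were no receptors; other genes were chosen after their values were seen. Some genes the rule names are not reported here.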

Additional observations from a re-analysis of the deposited data

How the results depend on the processing

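Values here are over all 92 matching loci. Of 112 alternative values, 78 stayed within the limit set for them (1.5-fold for a count, the binomial interval for a share, the spread of both runs for the median) and 34 did not; no cause was tested. Counts over fewer loci were compared as counts and not as shares, so a value can pass the limit partly because its set is smaller. With 1 sample per assay and no test, no call could be lost. No paired analysis was possible because each assay had 1 sample and no result came from a test.

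The 7 loci at 1 FPKM or more became 25 at a limit of 0.1 FPKM, 3 of the 73 loci with coordinates of their own, and 4 without the matches that are not receptors. The median of 0.0171 FPKM became 0.0542 over loci above 0, 0.0134 from log2 values with 0.01 added, and 0.0116 in run 1.

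For marks within 10 kb, H3K27ac went from 28 loci to 18 at 0 kb. A need for at least 2 positions gave 28 loci for H3K9ac (from 47) and 32 for H3K27me3 (from 53), and at least 3 gave 21, 22 and, for H3K9me3 (from 42), 24. Over the 73 loci with coordinates of their own, H3K4me3 was at 22 (from 37 of 92) and H3K27ac at 15 (from 28 of 92). The smaller set accounts for part of these lower counts.

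The shares per position of H3K4me3, H3K9ac and H3K27ac (0.255%, 0.224% and 0.208%) became 0.145%, 0.112% and 0.106% at 0 kb, and 0.167%, 0.130% and 0.122% at 2 kb. Without the other matches H3K4me3 was 0.206%. The median share per locus was 0 for H3K4me3, H3K27ac and H3K9me3, 0.0296% for H3K9ac and 0.124% for H3K27me3.

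At the start, H3K27ac went from 5 loci to 3 within 1 kb. With either end counted, H3K9ac was at 22 (from 14), H3K27ac at 10 and H3K9me3 at 11 (from 7). In alternatives added after seeing the data, H3K27ac was at 3 loci without the other matches. Over the 73 loci with coordinates of their own, H3K4me3 was at 9 (from 17 of 92), H3K9ac at 8 (from 14 of 92) and H3K27ac at 2. The smaller set accounts for part of these lower counts too. H3K27me3 at the start stayed within 1.5-fold of 28 loci under every alternative tried. None of these alternatives asked for at least 2 positions at the start. Only GRIK1, GRIK2, GRM3, GRM8, GRIN2A and HTR7 had more than 1 H3K27me3 nucleosome there, so the count rests mostly on single nucleosomes.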

Other observations

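Receptor genes on chromosome X were outside the chosen loci and were read for FPKM only. GABRE, the epsilon subunit of GABA-A receptors, was at 3.75 FPKM in run 1 and 3.27 FPKM in run 2. GABRA3, GABRQ, GLRA2, GLRA4, GRIA3 and HTR2C were between 0 and 0.0810 FPKM in either run, with GLRA4 listed at 0 in both.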
